A study of Drosophila melanogaster with 15 samples.

Results

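The transcriptomes of Drosophila eye discs that expressed Trichoplax Yap S81A were compared directly with those that expressed Drosophila Yki S168A. The comparison used all 6 libraries of these genotypes, 3 a side, out of 15 libraries in the series, and the 3 libraries of the eGFP control served as a reference level. Trichoplax Yap is the Yap protein of a placozoan, an animal without eyes, nerves or muscles, and Yki (Yorkie) is the fly's own Yap. Every library carried GMR-Gal4 and UAS-eGFP, to which the Trichoplax libraries added UAS-TrichoplaxYAP S81A and the Yki libraries UAS-DrosophilaYKI S168A, while the control had no Yap construct. The remaining 6 libraries, 3 with UAS-MonosigaYAP and 3 with UAS-MonosigaYAP+HumanTBD (Monosiga Yap joined to a human TEAD-binding domain), entered the model fit, so each p-value also rests on their spread. The labels describe differentiation defects for both constructs, with strong ectopic proliferation for Trichoplax Yap S81A and middle ectopic proliferation for Yki S168A, and give the larval age only as the third instar.

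Yki and Yap are coactivators that lack a DNA-binding domain and work through Scalloped, the fly TEAD protein. The Hippo kinase cascade, ending in Warts, phosphorylates Yki and keeps it out of the nucleus, and serine-to-alanine versions of the kind used here escape much of that control. In the eye disc, active Yki raises growth and survival genes and its own upstream inhibitors, and delays the exit from the cell cycle that normally goes with retinal differentiation. GMR-Gal4 drives in differentiating cells behind the morphogenetic furrow, so neither construct was under the promoter of yki. These files hold RNA values only, and the protein level of the constructs was not analysed here.

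Each library was made from polyadenylated RNA of surgically isolated GFP-positive tissue pooled from 25 to 30 discs, and whether the triplicate extractions came from separate crosses is not stated. The p-values therefore measure the spread between these libraries, which may be partly technical. Values are FPKM as deposited by the authors, a level per transcript length and library size. The depth, estimated from the steps between low FPKM values, was 13.9 to 17.3 M fragments for the Trichoplax libraries and 13.98 to 20.7 M for the Yki libraries. Between 8245 and 8913 genes reached an FPKM of 1 in these 6 libraries. Of 11 eye field markers, all had a mean FPKM of at least 1 in both groups, with a summed level of 519 to 583 FPKM with Trichoplax Yap S81A, 533 to 622 FPKM with Yki S168A and 775 to 932 FPKM in the control.

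Trichoplax replicate 1 stood apart in some transcripts of the larval fat body. Fbp1, a storage protein receptor, was at 2660.5 FPKM there, against 8.51 and 0.04 FPKM in the other Trichoplax libraries and at most 4.18 FPKM with Yki S168A. Lsp2 was at 1352 FPKM in that library, but Adh was at 4.86 FPKM, below every Yki library (18.8 to 31.9 FPKM). Obp44a was at 90.9 FPKM there, within the Yki range of 79.2 to 106 FPKM. The summed level of 6 fat body markers was 105 to 4199 FPKM over the Trichoplax libraries and 103 to 139 FPKM over the Yki libraries. The 2 male-specific roX RNAs summed to 19.4 FPKM in Trichoplax replicate 2 and up to 164 FPKM in the other Trichoplax libraries, both above every Yki library, and to 67.6 to 92.7 FPKM with Yki S168A. Summed markers of hemocytes (8 genes, 37.3 to 58.6 against 35.8 to 40.0 FPKM), of glia (8 genes, 230 to 280 against 240 to 252 FPKM) and of muscle (8 genes, 1.87 to 17.1 against 4.03 to 10.7 FPKM) overlapped between the constructs. The part of any of these in the results below was not tested, and the immune, fat body and ecdysone lists below are given with and without Trichoplax replicate 1.

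The constructs differed from each other at few genes. On the log2(FPKM + 1) scale, 47 of 9213 genes tested (0.51%) passed a limma adjusted p of 0.05, of which 32 (0.347%) were higher with Trichoplax Yap S81A and 15 (0.163%) were lower. Against the shared control, 1122 genes (12.2%) passed for Trichoplax Yap S81A and 1100 (11.9%) for Yki S168A, and these 2 comparisons use the same 3 control libraries. The median difference between the constructs over all genes was 0.02 on the log2 scale, and for 7559 genes (82.05%) the 95% interval of the difference lay within 2-fold in either direction. Intervals, here and in the lists below, are on the log2(FPKM + 1) scale, which understates the differences of low genes. An unadjusted limma p under 0.05 was reached by 539 genes (5.85%). In all 47 called genes the 3 Trichoplax values lay on one side of the 3 Yki values, which was the case for 11.2% of all genes tested. The difference was at least 2-fold on the log2(FPKM + 1) scale in 31 of the 32 higher genes and in 10 of the 15 lower genes. A fit with only these 6 libraries called 21 genes, 19 of them among the 47. Leaving out Yki replicate 2 left 30 calls and leaving out Yki replicate 3 left 31, and without Trichoplax replicate 1 there were 27 higher and 8 lower calls.

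**Figure D1:**
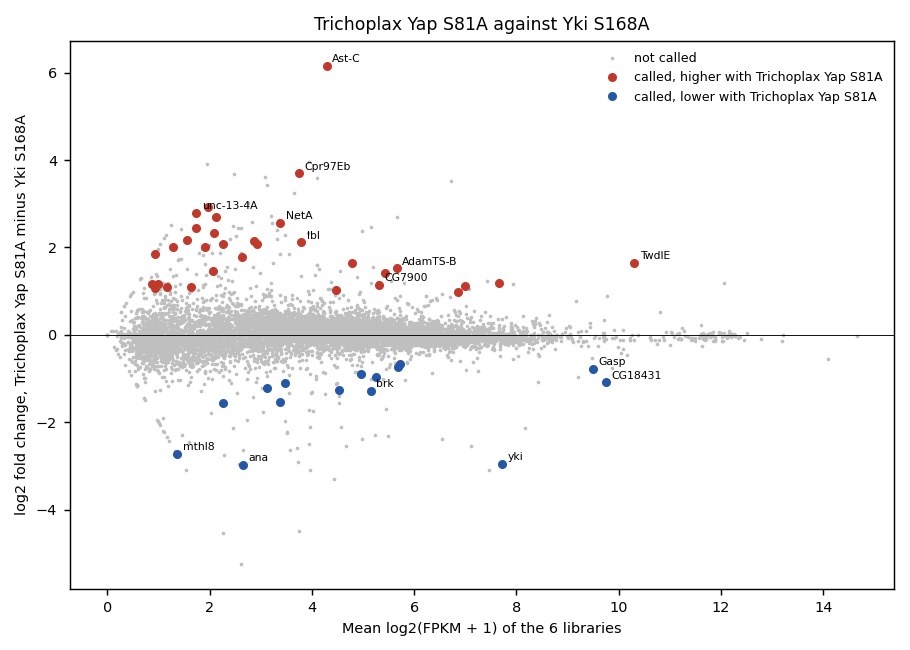
Difference between Trichoplax Yap S81A and Yki S168A (log2 fold change, y axis) against the mean log2(FPKM + 1) of the 6 libraries (x axis). Each point is 1 of 9213 genes, and the 32 genes called higher (red) and 15 called lower (blue) with Trichoplax Yap S81A stand out from a cloud centred near 0.

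The targeted gene was read first. The endogenous yki gene and the Yki S168A construct share their coding sequence, so their transcripts add up in the yki value, whereas a placozoan transcript is not among the fly genes measured. The yki level was 695.5, 706.2 and 408.3 FPKM in the Yki libraries and 79.0, 72.5 and 74.5 FPKM in the Trichoplax libraries, against 85.1 ± 4.57 FPKM in the control (SD, n = 3). Every Yki library was thus above every Trichoplax library, by 8.01-fold in the means (log2 difference -2.94 ± 0.17 SE, limma adjusted p = 4.51e-07), and Yki replicate 3 was the lowest of its group. Between Trichoplax Yap S81A and the control, yki differed by -0.17 on the log2 scale (limma adjusted p = 0.586). Scalloped (sd) was at 113 ± 20.3 FPKM with Trichoplax Yap S81A and 97.5 ± 3.92 FPKM with Yki S168A (SD, n = 3 each), with a 95% interval of -0.07 to 0.45 on the log2 scale.

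Known Yki targets did not pass between the 2 constructs. None of 17 targets tested passed in either direction, with a median log2 difference of 0.06 and a range of -0.62 to 0.85, and 14 of the 17 had an interval within 2-fold. Over all genes tested only 0.51% passed between the constructs. At that share a list of this size would hold few or no calls, here and in the lists below. Against the control, 9 of the 17 were higher with Trichoplax Yap S81A and 11 with Yki S168A by limma, with no member lower in either. Over all genes tested, 6.09% were called higher than the control with Trichoplax Yap S81A and 5.42% with Yki S168A. The gene expanded (ex), which restrains Yki, was at 264, 228 and 319.5 FPKM with Trichoplax Yap S81A and at 339.5, 269 and 268 FPKM with Yki S168A, against 54.5 FPKM in the control, so the groups overlapped (95% interval -0.43 to 0.20, limma adjusted p = 0.942). The caspase inhibitor gene thread (th, Diap1) was at 421, 417 and 455 FPKM with Trichoplax Yap S81A and at 460, 424 and 447 FPKM with Yki S168A, against a control mean of 302 FPKM. The groups overlapped there too, and the interval of -0.20 to 0.12 on the log2 scale left room for only a small difference (limma adjusted p = 0.964). Cyclin E (CycE), which drives entry into S phase, was at 35.8, 34.7 and 55.4 FPKM against 29.4, 32.1 and 35.4 FPKM, with overlapping groups (interval -0.06 to 0.73, limma adjusted p = 0.903). A p that misses the threshold does not show that the constructs act alike, and the intervals give the differences these libraries leave room for.

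Hippo pathway components were called against the control with both constructs and, apart from yki, not between them. Of 29 components tested, 10 were higher and 2 lower than the control with Trichoplax Yap S81A, and 10 were higher and 1 lower with Yki S168A, where yki, which the construct itself adds to, is among the 10. The shares over all genes tested were 6.09% higher and 6.09% lower with Trichoplax Yap S81A, and 5.42% higher and 6.52% lower with Yki S168A. Between the constructs yki alone passed (median log2 difference -0.02). The scaffold gene kibra was at 63.2 ± 11.1 FPKM with Trichoplax Yap S81A and 71.1 ± 10.9 FPKM with Yki S168A (SD, n = 3 each), and 21.5 FPKM in the control (interval -0.55 to 0.21). Merlin (Mer), its partner at the membrane, was at 26.3 ± 1.56 and 26.6 ± 2.46 FPKM (interval -0.24 to 0.21). The glypican dally, a cell surface proteoglycan, was at 127, 127 and 186 FPKM against 167, 161 and 145 FPKM (interval -0.45 to 0.19).

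The Golgi kinase four-jointed (fj), a target that acts on Fat and Dachsous, was the member of this set with the smallest limma adjusted p after yki. It was at 45.4, 44.5 and 53.4 FPKM with Trichoplax Yap S81A and at 39.3, 30.6 and 35.3 FPKM with Yki S168A, against 38.3 FPKM in the control. The groups did not overlap, but the difference of 0.44 ± 0.12 SE on the log2 scale did not pass (interval 0.18 to 0.70, limma adjusted p = 0.252). The EGF receptor ligand vein (vn) was at 6.89 ± 2.99 against 4.62 ± 0.244 FPKM (interval -0.04 to 0.90). None of the 15 genes of the Fat, Dachsous and planar polarity list passed, and all 15 had an interval within 2-fold, among them the cadherin partner echinoid (ed, 275 ± 1.69 against 266 ± 24.03 FPKM) and the atypical myosin dachs (d, 122 ± 7.66 against 136 ± 12.9 FPKM).

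**Figure D2:**
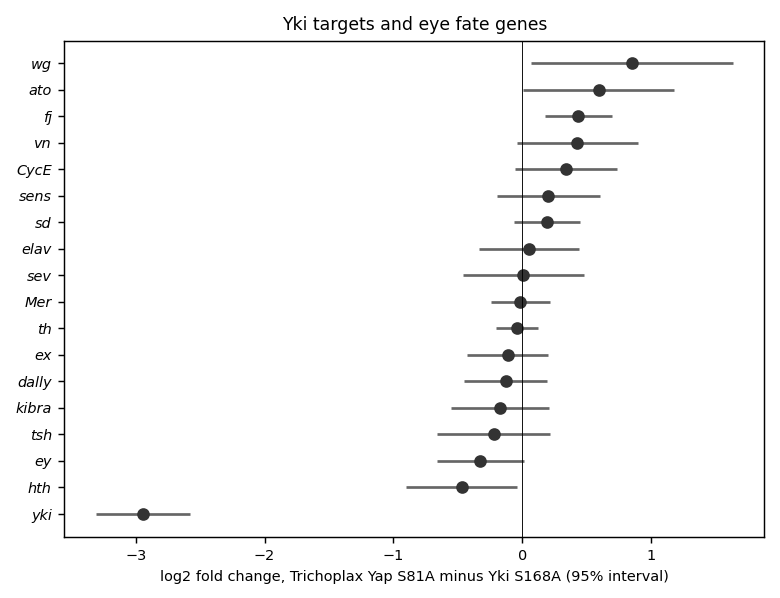
Log2 fold change between Trichoplax Yap S81A and Yki S168A with its 95% interval (x axis) for Yki targets, pathway genes and eye fate genes (y axis). The yki gene, which the Yki construct itself adds to, lies at -2.94, and the intervals of ex, th, Mer, kibra, dally and elav include 0.

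Genes of proliferation did not pass between the constructs, although the labels grade them as strong and middle. None of 49 DNA replication genes tested passed, with 42 of them above 0 and a median log2 difference of 0.17, against a median of 0.02 over all genes. Against the shared control, 36 of the 49 were higher with Trichoplax Yap S81A (median 0.92) and 31 with Yki S168A (median 0.76) by limma. The shares called higher over all genes tested were 6.09% and 5.42%. The clamp subunit PCNA (listed as mus209) was at 314, 338 and 378 FPKM with Trichoplax Yap S81A and at 313, 293 and 305 FPKM with Yki S168A, against 133 FPKM in the control. Each Trichoplax value was above each Yki value, as in 6.91% of all genes tested, with a difference of 0.17 and an interval of -0.09 to 0.43 (limma adjusted p = 0.916). The single-strand binding protein RPA2 was at 130, 142 and 137 FPKM against 116, 96.8 and 116 FPKM, again without overlap (interval 0.02 to 0.61, limma adjusted p = 0.796).

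None of 60 mitosis genes tested passed, with a median of 0.04 and 59 intervals within 2-fold. Against the control, 27 of them were higher with Trichoplax Yap S81A and 21 with Yki S168A, where 6.09% and 5.42% of all genes tested were. The checkpoint gene Bub3 was at 146 ± 9.77 against 149 ± 4.46 FPKM and the kinase polo at 194 ± 7.86 against 196 ± 11.7 FPKM. Of 35 ribosome biogenesis genes, 3 lay above 0 and none passed (median -0.20, range -0.43 to 0.12). Its 2 most abundant members, Non1 and Nop10, were at 373 ± 54.0 against 381 ± 42.9 FPKM and 270 ± 22.5 against 273 ± 13.5 FPKM. Among 26 growth and insulin signalling genes none passed (median 0.04), and the secreted insulin antagonist ImpL2 was at 645 ± 146 against 605 ± 113 FPKM. The amino acid transporter pathetic (path) was at 97.8 to 256 FPKM against 131 to 250 FPKM, with overlapping groups. Of 17 apoptosis genes none passed (median 0.14, 14 above 0), and the caspases Dcp-1 (53.6 ± 3.57 against 48.3 ± 2.26 FPKM) and Ice (50.3 ± 5.12 against 45.5 ± 5.14 FPKM) differed by 0.15 and 0.14 on the log2 scale.

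Allatostatin C (Ast-C), a neuropeptide gene on chromosome arm 2L (bases 11076165 to 11081397, minus strand, build dm3), was at 178, 97.8 and 255 FPKM with Trichoplax Yap S81A. It was at 1.87, 0.73 and 1.51 FPKM with Yki S168A and at 0, 0.70 and 0 FPKM in the control. The groups were far apart, with a 129-fold ratio of means between the constructs (log2 difference 6.16 ± 0.33 SE, limma adjusted p = 3.90e-07). Against the control, Ast-C passed with Trichoplax Yap S81A and not with Yki S168A (limma adjusted p = 1.90e-08 and 0.0815). In bulk tissue, more cells that express a gene and more RNA per cell cannot be told apart, here and in what follows.

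Netrin-A (NetA), a guidance cue for axons, on the X chromosome (bases 14498045 to 14547864, minus strand, dm3), was at 27.7, 22.4 and 23.6 FPKM with Trichoplax Yap S81A and at 4.14, 3.37 and 2.53 FPKM with Yki S168A. The 7.34-fold ratio exceeded the spread of both groups (log2 difference 2.57 ± 0.20 SE, limma adjusted p = 7.77e-06), and the Yki level was close to the control mean of 2.20 FPKM. The gene unc-13-4A, of the Unc-13 family that primes vesicles for release, was at 8.78, 7.37 and 7.33 FPKM against 0.23, 0.33 and 0.24 FPKM, a 29.2-fold ratio (limma adjusted p = 1.60e-06). The nicotinic acetylcholine receptor subunit gene gfA was at 10.5, 6.04 and 9.99 FPKM against 1.14, 1.20 and 0.46 FPKM, a 9.48-fold ratio (limma adjusted p = 2.79e-04). For unc-13-4A and gfA the Yki libraries overlapped the control, which had means of 0.28 and 0.95 FPKM. The guidance receptor family gene beat-Ic was at 4.18, 5.86 and 8.50 FPKM against 1.480, 1.39 and 1.75 FPKM (limma adjusted p = 0.00424), and overlaps genes on both strands, whose reads cannot be told apart where counting by strand is not stated.

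Rh5, the blue-sensitive opsin of inner photoreceptors, was the 1 member of 41 neuronal and phototransduction genes to pass. It was at 16.7, 11.7 and 15.3 FPKM with Trichoplax Yap S81A and at 2.35, 2.55 and 2.59 FPKM with Yki S168A, against 0.89 FPKM in the control (5.84-fold, log2 difference 2.14 ± 0.21 SE, limma adjusted p = 8.60e-05). Both constructs were above the control for Rh5 (limma adjusted p = 6.09e-07 and 0.0117). The list as a whole had a median of 0.02, so Rh5 stood apart from its other members. Of all genes tested, 0.347% were called higher. The list is not complete, and the called genes Ast-C, NetA, gfA and beat-Ic, described above, are outside it. The neuronal marker elav was at 19.8, 28.6 and 27.6 FPKM against 19.9, 29.4 and 23.6 FPKM (interval -0.33 to 0.44).

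Cpr97Eb, a cuticle protein gene on arm 3R (bases 22915417 to 22916845, minus strand, dm3), was at 34.3, 33.3 and 94.2 FPKM with Trichoplax Yap S81A and at 2.60, 3.85 and 2.04 FPKM with Yki S168A, against 1.01 FPKM in the control. All Trichoplax values were above all Yki values, with a 19.0-fold ratio (log2 difference 3.69 ± 0.34 SE, limma adjusted p = 4.77e-05). The neighbouring Cpr97Ea lies 3076 bases away and differed in the opposite direction, as given below. Osi9, of the Osiris family of epithelial membrane proteins, was at 7.50, 9.39 and 14.8 FPKM against 0.74, 0.74 and 0.67 FPKM, a 14.8-fold ratio (limma adjusted p = 5.50e-05). Here the Yki libraries were below the control mean of 5.57 FPKM (limma adjusted p = 2.79e-04), while Trichoplax Yap S81A did not pass against it (limma adjusted p = 0.0594). AdamTS-B, a secreted metalloprotease, was at 79.1, 79.6 and 96.3 FPKM against 35.4, 23.9 and 28.2 FPKM and was above the control mean of 17.8 FPKM with both constructs (2.91-fold between constructs, limma adjusted p = 7.85e-05). AdamTS-B overlaps a gene on the other strand.

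The homeobox gene ladybird late (lbl), a transcription factor of head and muscle patterning, on arm 3R (bases 17235701 to 17259845, minus strand, dm3), was at 23.3, 22.6 and 41.1 FPKM with Trichoplax Yap S81A and at 8.16, 2.84 and 7.31 FPKM with Yki S168A. The control mean was 0.13 FPKM, so both constructs were above it (limma adjusted p = 4.44e-07 and 1.38e-04) and to different degrees, with a 4.75-fold ratio (log2 difference 2.12 ± 0.31 SE, limma adjusted p = 0.00295). With a pseudocount of 0.1 in place of 1 the difference of lbl did not pass (limma adjusted p = 0.0831). Of 28 antenna, head capsule and peripodial genes tested, lbl was the only one called, and the list's median was -0.13.

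Further genes were chosen after their values were seen, for having been called under every setting that tested them, apart from the last. The calcium-binding protein gene Scp2 was at 2.47, 3.73 and 6.16 FPKM against 0.20, 0.24 and 0.22 FPKM (18.5-fold, limma adjusted p = 3.85e-04). Msr-110 was at 202, 165 and 191 FPKM against 83.5, 70.8 and 105 FPKM, with a control mean of 90.0 FPKM (limma adjusted p = 0.00167). CG7900 was at 54.8, 51.0 and 70.9 FPKM against 29.8, 23.2 and 24.4 FPKM, and at 0.60 to 0.64 FPKM in the control. CG7900 was thus raised by both constructs and further by Trichoplax Yap S81A (limma adjusted p = 9.29e-04 between the constructs). CG14989 was at 6.48, 7.16 and 19.3 FPKM against 0.19, 1.08 and 0.16 FPKM (limma adjusted p = 8.14e-04), and CG17217 at 19.2, 12.3 and 13.6 FPKM against 2.78, 2.72 and 2.64 FPKM (limma adjusted p = 2.16e-04). The Yki values of CG14989 overlapped the control, and CG17217 overlaps a gene on the other strand. The gene FBgn0261701, which has no symbol in the tables used, was at 4.43, 2.10 and 1.78 FPKM with Trichoplax Yap S81A and was listed at 0 in all 12 other libraries of the series (limma adjusted p = 9.06e-04).

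**Figure D3:**
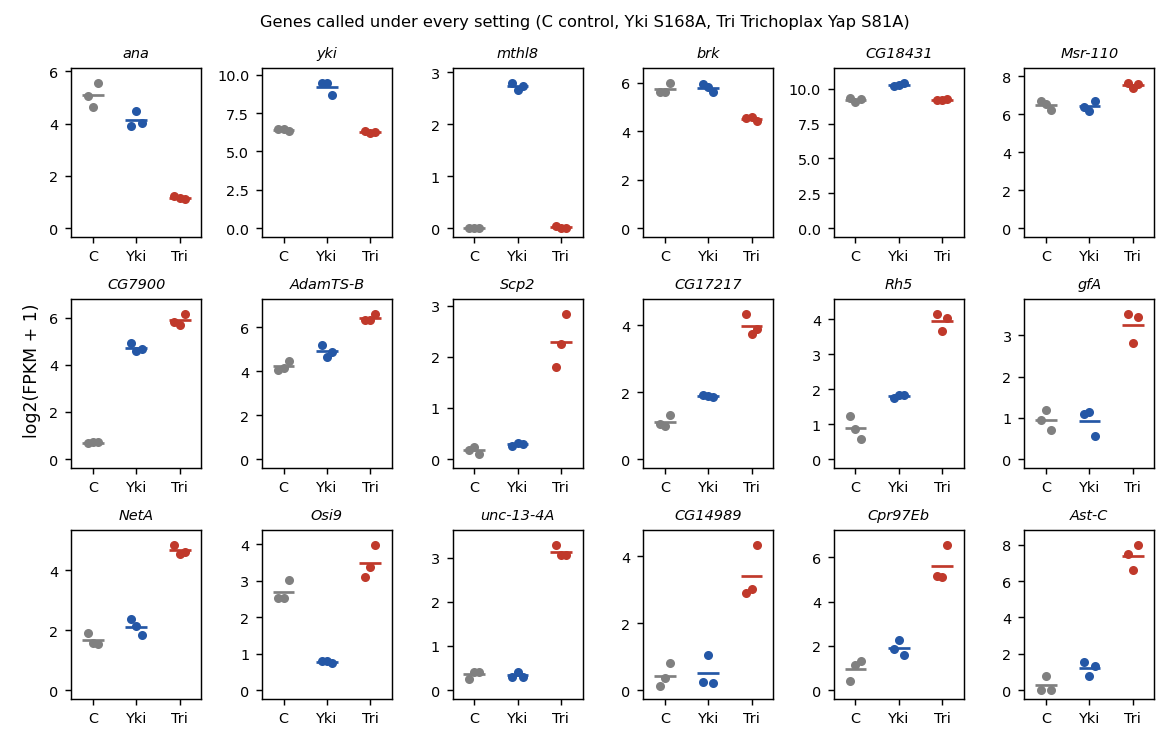
Level in log2(FPKM + 1) (y axis) in the 3 control, 3 Yki S168A and 3 Trichoplax Yap S81A libraries (x axis) for the 18 genes called in the fit as reported and in each of the 16 alternatives that tested them. Points are libraries and bars are group means, and in each panel the Trichoplax points lie apart from the Yki points.

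Among the genes lower with Trichoplax Yap S81A, anachronism (ana), a secreted glycoprotein that glia make to hold neuroblasts quiescent, had the largest log2 difference of the called genes. It was at 1.33, 1.23 and 1.17 FPKM with Trichoplax Yap S81A and at 13.9, 21.4 and 15.1 FPKM with Yki S168A, against 34.2 ± 11.2 FPKM in the control (SD, n = 3). Both constructs were below the control (limma adjusted p = 2.03e-07 and 0.0145), and Trichoplax Yap S81A was below Yki S168A by 13.5-fold (log2 difference -2.96 ± 0.23 SE, limma adjusted p = 7.77e-06). No other of 20 glia markers tested passed, and the list's median was 0.02, with the glial transcription factor repo at 18.1 ± 3.75 against 13.6 ± 3.36 FPKM. repo was chosen after its values were seen, as the marker that defines glia.

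The repressor brinker (brk), which keeps targets of Dpp signalling off, was at 22.4, 22.8 and 20.4 FPKM with Trichoplax Yap S81A and at 60.1, 55.0 and 48.2 FPKM with Yki S168A. The control mean of 52.7 FPKM was among the Yki values (limma adjusted p = 0.906) and above the Trichoplax values (limma adjusted p = 4.51e-04), and the constructs differed by 2.49-fold (log2 difference -1.27 ± 0.18 SE, limma adjusted p = 0.00269). No other of 25 Dpp pathway genes tested passed (median -0.04, range -1.27 to 0.65). The called gene magu, given below, is outside this list. Shifted (shf), the fly WIF protein that aids the spread of Hedgehog, was at 37.9, 38.5 and 41.0 FPKM against 64.8, 77.7 and 55.9 FPKM, with a control mean of 60.5 FPKM (1.69-fold, limma adjusted p = 0.00742). The exchange factor gene RhoGEF4 was at 41.4, 39.3 and 41.8 FPKM against 69.5, 63.8 and 61.5 FPKM (1.59-fold, limma adjusted p = 0.00223). For shf and RhoGEF4 a gene on the other strand overlaps, and the reads of the pair cannot be told apart.

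The receptor gene mthl8, of the Methuselah family, on arm 3L (bases 22947 to 26316, plus strand, dm3), was at 5.94, 5.32 and 5.68 FPKM with Yki S168A, at 0.03, 0 and 0 FPKM with Trichoplax Yap S81A and listed at 0 in all 3 control libraries (limma adjusted p = 5.29e-07 between the constructs). It was thus at or near 0 in both other groups. CG18431, chosen after its values were seen, was at 579, 589 and 609 FPKM against 1196, 1213 and 1367 FPKM, with 595 FPKM in the control (limma adjusted p = 1.97e-04 between the constructs), and overlaps a gene on the same strand. Only the Yki libraries stood apart from the control for CG18431.

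The calls of 22 genes ended when 1 library was left out, and 25 calls remained without any single one of the 6 libraries. Without Trichoplax replicate 1, 14 of the 47 calls ended (limma adjusted p from 0.052 to 0.224), without replicate 2, 10 (0.0646 to 0.149), and without replicate 3, 15 (0.0608 to 0.192). Without Yki replicate 1, 15 calls ended (0.0556 to 0.193), without replicate 2, 17 (0.0513 to 0.217), and without replicate 3, 17 (0.052 to 0.191). The calls in the paragraphs above are among the 25 that remained, and the named genes of the other 22 follow. Of the 25, beat-Ic (0.0906), lbl (0.147), shf (0.13), RhoGEF4 (0.0786) and FBgn0261701 (0.0563) were among 7 that did not pass in the fit with only these 6 libraries, by limma adjusted p.

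TwdlE, a cuticle protein gene of the Tweedle family, was at 2117, 1816 and 2919 FPKM with Trichoplax Yap S81A and at 899, 494 and 822 FPKM with Yki S168A, with a control mean of 47.7 FPKM. It was called between the constructs (3.09-fold, limma adjusted p = 0.0322) but not without Trichoplax replicate 1 or 3 (0.11 and 0.156) or without any 1 Yki library (0.0556, 0.141 and 0.0755). The bHLH repressor hairy (h), which sets the pace of the furrow, was at 82.7, 42.1 and 96.4 FPKM against 33.5, 23.1 and 20.7 FPKM (limma adjusted p = 0.041). Its call ended without Trichoplax replicate 1 or 3 (0.196 and 0.191) and without Yki replicate 2 or 3 (0.179 and 0.189). Thrombospondin (Tsp), the 1 called gene of 27 matrix and basement membrane genes, was at 46.3, 42.2 and 54.9 FPKM against 19.0, 6.40 and 24.3 FPKM (limma adjusted p = 0.0451). Its call ended without any 1 Trichoplax library (0.156, 0.101 and 0.192) and without Yki replicate 1 (0.0613), and Tsp overlaps a gene on the same strand. Jhbp16, of the juvenile hormone binding protein family, was at 12.2, 11.6 and 8.27 FPKM against 3.21, 3.06 and 1.17 FPKM (limma adjusted p = 0.0413), but not without any 1 of the 6 libraries (0.0613 to 0.189).

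Among the lower genes of this kind, Gasp, a chitin-binding protein gene, was at 534, 505 and 620 FPKM with Trichoplax Yap S81A and at 1044, 937 and 853 FPKM with Yki S168A, with a control mean of 483 FPKM (1.71-fold, limma adjusted p = 0.0322). It was the 1 called gene of 22 cone and pigment cell genes, and the call ended without Trichoplax replicate 1 or 2 (0.144 and 0.134) and without any 1 Yki library (0.175, 0.127 and 0.0546). Cpr97Ea, the cuticle protein gene beside Cpr97Eb, was at 3.68, 5.46 and 5.33 FPKM against 12.7, 12.9 and 11.5 FPKM (limma adjusted p = 0.0442), but not called without any 1 of the 6 libraries (0.0852 to 0.224). The translation factor gene Ef1alpha100E was at 24.6, 27.1 and 28.1 FPKM against 48.5, 69.3 and 42.8 FPKM, and both constructs were below the control mean of 123 FPKM (2.01-fold between constructs, limma adjusted p = 0.00958, and 0.0546 without Trichoplax replicate 1). The gene magu (pentagone), a secreted modulator of the Dpp gradient, was at 23.5, 27.2 and 16.7 FPKM against 36.3, 46.6 and 42.4 FPKM, with a control mean of 69.6 FPKM (limma adjusted p = 0.0192). The call of magu ended without Trichoplax replicate 1 or 3 (0.0524 and 0.0608) and without Yki replicate 2 or 3 (0.124 and 0.0755), and a gene on the other strand overlaps it.

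Wingless (wg), the ligand of the Wnt pathway that opposes the start of eye differentiation at the disc margins, was above the control with both constructs (limma adjusted p = 3.04e-06 for Trichoplax Yap S81A and 4.20e-05 for Yki S168A). It was at 107, 79.3 and 176 FPKM with Trichoplax Yap S81A, at 67.5, 39.5 and 93.3 FPKM with Yki S168A and at 3.92 FPKM in the control. The groups overlapped, and the difference of 0.85 ± 0.36 SE on the log2 scale did not pass (interval 0.07 to 1.63, limma adjusted p = 0.789). None of 24 Wingless pathway genes tested passed (median 0.01), with its abundant members arm (386 ± 16.1 against 417 ± 8.75 FPKM) and sgg (123 ± 7.63 against 141 ± 19.9 FPKM) within 2-fold. Wnt6, chosen after its values were seen, was at 57.1, 50.9 and 50.4 FPKM against 19.9, 17.5 and 32.2 FPKM without overlap (limma adjusted p = 0.106).

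The genes that set eye and progenitor identity did not pass between the constructs. Of 20 retinal determination and progenitor genes tested, 7 lay above 0 and the median log2 difference was -0.17. An unadjusted limma p under 0.05 was reached by 5 of the 20, all lower with Trichoplax Yap S81A. Over all genes tested, 5.85% reached it in either direction. Homothorax (hth), a progenitor factor that acts with Yki, was at 173, 166 and 182 FPKM with Trichoplax Yap S81A and at 265, 201 and 262 FPKM with Yki S168A, against 106 FPKM in the control. The groups did not overlap, as in 4.29% of all genes tested in that direction, with a difference of -0.47 ± 0.20 SE (interval -0.90 to -0.04, limma adjusted p = 0.787). Its partner exd was at 170 ± 25.8 against 173 ± 19.1 FPKM, teashirt (tsh) at 26.2 ± 5.84 against 30.3 ± 2.24 FPKM and eyeless (ey) at 47.7 ± 7.22 against 59.8 ± 7.61 FPKM, all with overlapping groups. The eye field gene eya was at 82.9, 89.3 and 82.9 FPKM against 144, 117 and 93.6 FPKM without overlap (interval -0.81 to -0.09, limma adjusted p = 0.635). The gene toy was at 111 ± 9.94 against 107 ± 7.34 FPKM.

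Photoreceptor specification genes were called lower than the control with both constructs and not called between them. Of 33 genes tested, 16 were lower than the control with Trichoplax Yap S81A (median -0.68) and 18 with Yki S168A (median -0.84) by limma, where 6.09% and 6.52% of all genes tested were called lower, and none passed between the constructs (median 0.05, 29 intervals within 2-fold). The receptor kinase sevenless (sev), which specifies R7, was at 11.6, 20.3 and 13.1 FPKM with Trichoplax Yap S81A and at 12.9, 16.9 and 13.8 FPKM with Yki S168A, against 115 FPKM in the control. The groups overlapped (interval -0.46 to 0.48, limma adjusted p = 0.998). The proneural gene atonal (ato), needed for R8, was at 15.1, 18.5 and 12.8 FPKM against 9.40, 9.79 and 10.2 FPKM, with a control mean of 25.1 FPKM. Those groups did not overlap, and the difference of 0.59 ± 0.27 SE did not pass (limma adjusted p = 0.849). Senseless (sens), which follows atonal in R8, was at 5.26 ± 0.526 against 4.52 ± 1.29 FPKM (interval -0.20 to 0.61), and the abundant regulators lola (343 ± 31.1 against 341 ± 32.6 FPKM) and aop (126 ± 22.4 against 119 ± 10.1 FPKM) overlapped.

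Other signalling lists had no call between the constructs. Of 21 EGF receptor genes none passed, with 17 above 0 and a median of 0.13, and the ligand spitz (spi) was at 318, 364 and 373 FPKM against 288, 272 and 290 FPKM, without overlap (interval 0.02 to 0.59, limma adjusted p = 0.79). The downstream Ras85D was at 123 ± 22.0 against 124 ± 17.3 FPKM. Of 21 Notch pathway genes none passed (median 0.01), with HLHmbeta at 57.9 to 229 FPKM against 101 to 155 FPKM and Tom at 253 ± 16.8 against 221 ± 25.1 FPKM. Of 12 Hedgehog genes none passed (median -0.04), with the transcription factor ci at 88.0 ± 11.4 against 90.8 ± 10.9 FPKM and the coreceptor iHog at 91.6 ± 12.5 against 94.5 ± 17.8 FPKM. The called gene shf, given above, is outside this list. Of 12 JAK/STAT genes none passed (median -0.07), with Stat92E at 59.5 ± 6.08 against 62.8 ± 0.749 FPKM and ken at 40.9 ± 2.30 against 45.8 ± 22.4 FPKM. Of 30 JNK and tissue stress genes none passed (median 0.00), with the metalloprotease Mmp2 at 180 ± 33.1 against 164 ± 16.1 FPKM, both below the control mean of 443 FPKM.

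Structural, stress and hormone response lists had no call between the constructs. All 38 actomyosin and polarity genes had intervals within 2-fold and none passed (median -0.03), with Act5C at 2264 ± 222 against 2257 ± 409 FPKM and alphaTub84B at 3141 ± 48.5 against 3085 ± 285 FPKM. Of 19 heat shock and chaperone genes none passed, 2 lay above 0 and the median was -0.33, the lowest of the 33 lists, with a range of -2.62 to 0.91 and 10 intervals within 2-fold. Hsc70-4 was at 2802 ± 208 against 2940 ± 391 FPKM and Hsp83 at 1809 ± 198 against 1991 ± 417 FPKM. Of 29 detoxification genes none passed (median 0.01), although GstD1, a glutathione transferase, was at 673, 627 and 506 FPKM against 921, 813 and 844 FPKM without overlap (interval -0.88 to -0.17, limma adjusted p = 0.426). Of 30 ecdysone response genes none passed (median 0.01, range -1.29 to 3.62, 15 intervals within 2-fold), with ImpE2 at 1478 to 2582 FPKM against 1475 to 2814 FPKM. The upper end of this range is that of Fbp1, which was at 2660.5 FPKM in Trichoplax replicate 1 and far lower in the other Trichoplax libraries. Without that library the median of the ecdysone list was 0.04, with no call.

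The immune peptide and fat body lists moved with Trichoplax replicate 1. Of 18 immune peptide genes tested, 15 lay above 0 with a median of 1.52, and CecB alone passed. CecB, a cecropin with near-identical neighbours among which reads may be split, was at 14.6, 4.72 and 4.29 FPKM with Trichoplax Yap S81A and at 0.71, 0 and 0.72 FPKM with Yki S168A (limma adjusted p = 0.0263). Its call ended without Trichoplax replicate 1 (0.117) and without any 1 Yki library (0.0613, 0.146 and 0.0624), and the list's median was 0.50 without Trichoplax replicate 1, with no call. The stress peptide gene TotA, chosen after its values were seen, was at 706 FPKM in that library, in which some fat body markers were high. It was at 2.15 and 0 FPKM in the other Trichoplax libraries. Of 14 fat body markers none passed, with a median of 0.31 and of 0.06 without that library, and the more evenly expressed Obp44a was at 96.9 ± 30.1 against 95.6 ± 14.4 FPKM. None of 19 hemocyte markers passed (median 0.04), with crq at 21.9 ± 6.11 against 19.6 ± 5.96 FPKM. In the same list lz, which is also among the eye field markers, was at 40.0 ± 4.29 against 41.9 ± 7.07 FPKM. Of 14 muscle markers (median -0.06, with Tm1 at 366 ± 57.1 against 389 ± 11.6 FPKM and how at 65.8 ± 2.59 against 68.3 ± 6.36 FPKM) and of 15 optic lobe and brain markers (median -0.05, with Ddc at 72.5 to 165 FPKM against 61.4 to 72.1 FPKM) none passed. Of 17 dosage and sex markers none passed (median 0.08), with Sxl at 158 ± 19.2 against 158 ± 17.5 FPKM and roX1 at 92.5, 12.3 and 68.7 FPKM against 59.9, 56.5 and 45.1 FPKM.

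**Figure D4:**
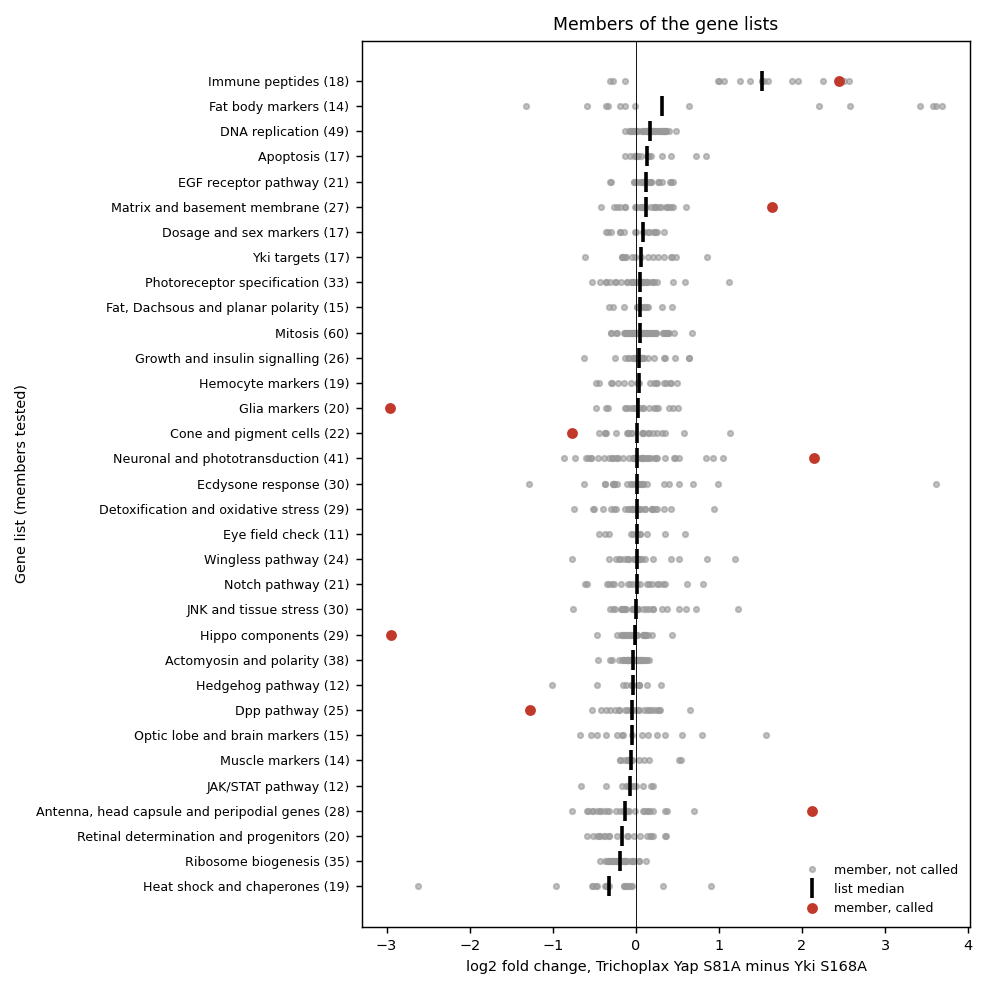
Log2 fold change between Trichoplax Yap S81A and Yki S168A (x axis) of the tested members of 33 gene lists (y axis, number tested in brackets), with called members in red and list medians as bars. 8 lists hold 1 called member each, and the list medians run from -0.33 for heat shock genes to 1.52 for immune peptides.

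The 47 called genes could be sorted by where each construct stood against the shared control, given here as each comparison's own calls. Of the 32 genes higher with Trichoplax Yap S81A, 29 passed above the control with that construct and 9 with Yki S168A, while 2 were below the control with Yki S168A. Of the 15 lower genes, 8 were below the control with Trichoplax Yap S81A and 4 with Yki S168A, while 6 were above the control with Yki S168A. The same Trichoplax and Yki libraries served in choosing the 47 genes, so these counts describe them and are no test. The shares over all genes tested were 6.09% above and 6.09% below the control with Trichoplax Yap S81A, and 5.42% and 6.52% with Yki S168A. The called genes lay on all major arms, with 11 on 2L, 5 on 2R, 9 on 3L, 12 on 3R and 8 on X in the authors' dm3 annotation. In 7 places 2 called genes were less than 100 kb apart, among them CG14915 with Ast-C (4633 bases between them), out with gfA (6496 bases) and unc-13-4A with RhoGEF4 (36061 bases). The first 2 of these pairs were both higher with Trichoplax Yap S81A, and in the last only unc-13-4A was. Whether genes picked at random would lie as close as often was not tested. CG14915 and out, named for their position after their values were seen, were at 2.93 to 6.88 FPKM against 0 to 0.80 FPKM and at 124 to 216 FPKM against 78.4 to 85.8 FPKM, and the call of out ended without Trichoplax replicate 2 or 3 (0.0646 and 0.0624) and without any 1 Yki library (0.0592, 0.104 and 0.075), while that of CG14915 ended with a pseudocount of 0.1 (0.0654) and in the fit with only these 6 libraries (0.0572), by limma adjusted p.

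The other construct groups of the series placed these genes differently. In the libraries of Monosiga Yap-TBD, the Yap of a choanoflagellate joined to a TEAD-binding domain, Cpr97Eb had a mean of 270 FPKM, Scp2 of 10.3 FPKM and gfA of 10.1 FPKM, at or above the Trichoplax means of 53.9, 4.12 and 8.85 FPKM. NetA, lbl and Ast-C had means of 4.16, 0.47 and 10.9 FPKM there, below the Trichoplax means of 24.6, 29.01 and 177 FPKM. In the libraries of Monosiga Yap alone, lbl and Ast-C had means of 0.18 and 0.33 FPKM and Cpr97Eb of 1.13 FPKM. Other called genes were above the control means with Monosiga Yap alone, such as Rh5 (7.22 against 0.89 FPKM) and CG7900 (16.7 against 0.62 FPKM). Differences from the Monosiga groups were not tested here.

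**Figure D5:**
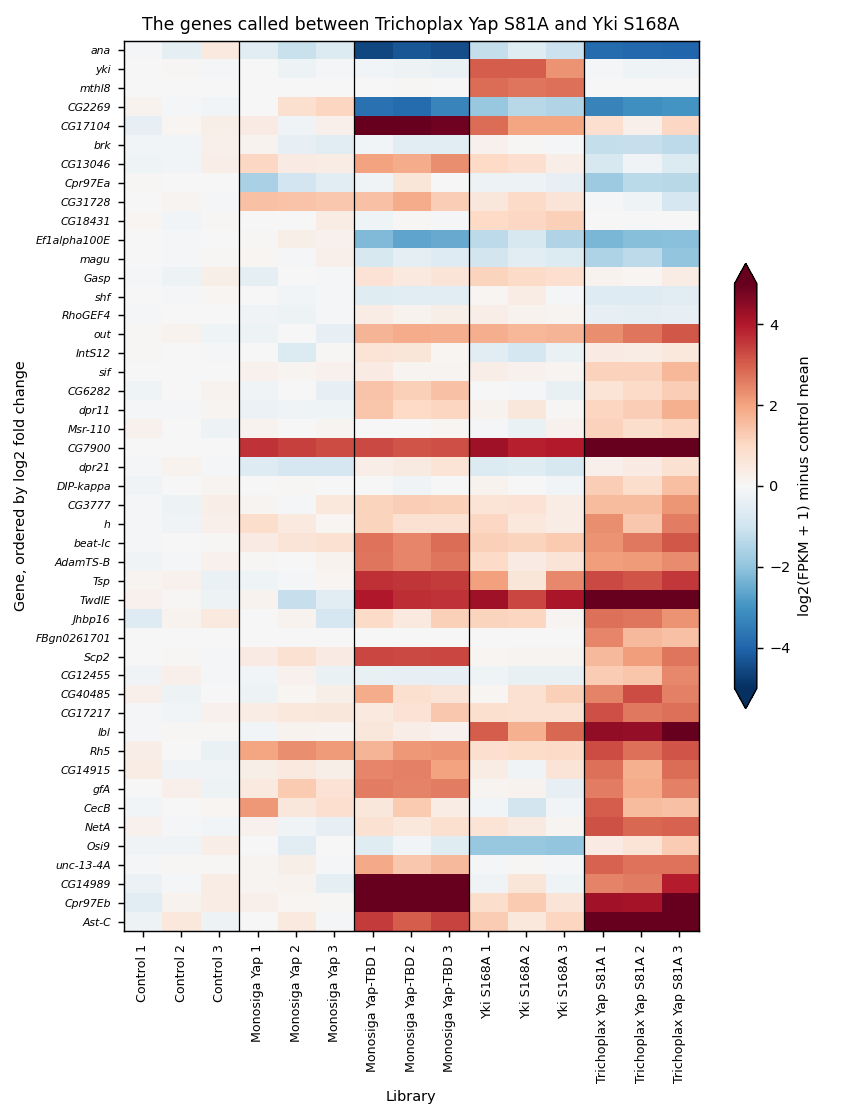
Level of the 47 called genes (rows, ordered by the log2 fold change between Trichoplax Yap S81A and Yki S168A) in all 15 libraries (columns), as log2(FPKM + 1) minus the control mean, with colours limited at 5 in either direction. The rows of NetA, Cpr97Eb and Ast-C near the bottom are red in the 3 Trichoplax libraries, and yki and mthl8 near the top are red in the 3 Yki libraries alone.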

How the data were processed

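RNA of 15 libraries in 5 groups of 3 was analysed, with samples grouped by the labelled genotype. The submitters' processing notes name Cuffdiff 1.0.2, Cufflinks, TopHat 1.0.14, CASAVA 1.7.0 and build dm3, and the role of each tool, the annotation, the filters and the use of strand are not given in the sources used here. The deposited FPKM values of 14671 genes were made by the authors per transcript length and library size. The authors' deposited table of comparisons holds natural log ratios over the control, p-values, a score derived from the p-values and a mean level in log2, all computed by the authors. Of that table only gene symbols and dm3 positions were used here. No read counts were used, so no count test was run.

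Values were taken to log2(FPKM + 1), on which a fold change understates that of low genes, and fold ratios are ratios of mean FPKM. The test covered the 9213 genes that reached 1 FPKM in 3 or more libraries. One limma 3.58.1 model (R 4.3.3) of all 15 libraries with a variance trend and robust moderation gave each contrast, with Benjamini-Hochberg adjustment over all genes tested and a threshold of 0.05. The fit had 10 residual degrees of freedom and a median SE of 0.193 on the log2 scale. Scripts were tested on simulated data. Depth was estimated from the steps between low FPKM values of 228 genes with a length correction of 204 bases, and limits the precision of low values. The authors' table gave 13520 symbols, a table of names 914 more, and 237 genes stayed without one. Gene lists held 913 entries, of which 903 were found.

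The members and the lists were chosen with earlier results of these data known. Genes were named by rule: a fixed set of Yki targets and eye genes, up to 15 called genes with the largest difference in each direction (a mean of at least 5 FPKM in the higher group, no overlap between groups, a symbol other than a CG number), up to 3 called members per direction of each list, and the 2 most abundant tested members of each list without a call. Exceptions are marked in the text. Alternatives changed the pseudocount, the filter, the libraries in the fit, the scaling, library weights, a replicate block, the moderation, and left out each of the 6 libraries in turn. Figures were drawn with matplotlib 3.10.9.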

Additional observations from a re-analysis of the deposited data

How the results depend on the processing

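In 744 recomputations of the 47 called genes over 16 alternatives, 589 kept the call, 155 lost it and 0 reversed, and 18 genes kept it under every alternative. Of 992 recomputations of 62 named genes that were not called, 7 gained a call, all with array weights. The fit with only the 6 libraries compared, which has fewer residual degrees of freedom, called 21 genes (14 higher, 7 lower). With limma array weights 699 genes were called (433 higher, 266 lower), including all 47, and the estimation of the weights did not converge fully, so this count was not relied on. The cause of the size of this change was not tested. Leaving out 1 of the 6 libraries gave 30 to 41 calls, 20 to 29 of them higher and 8 to 14 lower. The other alternatives gave 37 to 58 calls, within 1.5 times the main count. Whether the replicate numbers pair the libraries could not be settled. The deviations of same-numbered libraries correlated at 0.19, -0.08 and 0.24, and those of other pairs at -0.28 to 0.08. Trichoplax replicates 1 and 3 correlated best with the Yki library of their own number, and replicate 2 did not. With the replicate block 39 genes were called (26 higher, 13 lower), all 39 among the 47. Without Trichoplax replicate 1, in which some fat body transcripts were high, 33 of the 47 calls remained. Counts of calls in the gene lists moved in 85 of 1056 recomputations, 44 of them with array weights. Low values limit the calls: 7 called genes had a mean below 5 FPKM in both groups, and 112 genes stood at 0 in a compared library and at 20 FPKM or more in another.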

Other observations

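Gene families of the largest differences were looked at after the values were seen, so their counts are descriptions. Of 18 tested genes of the dpr and DIP immunoglobulin families, cell surface proteins that bind each other in the nervous system, 3 were called higher with Trichoplax Yap S81A (0.347% of all genes were), and the median of the 18 was -0.02. dpr11 had a mean of 3.63 FPKM with Trichoplax Yap S81A and 1.14 FPKM with Yki S168A (limma adjusted p = 0.0413). dpr21 had means of 2.02 and 0.33 FPKM (limma adjusted p = 0.0123) and DIP-kappa of 1.81 and 0.23 FPKM (limma adjusted p = 0.015). For dpr21 the Yki libraries were below the control mean of 1.16 FPKM (limma adjusted p = 0.0344), while Trichoplax Yap S81A did not pass against it (limma adjusted p = 0.144). All 3 genes have low levels, each call ended without 1 or more single libraries (limma adjusted p from 0.0513 to 0.193), and genes overlap dpr11 and DIP-kappa. beat-Ia, the neighbour of beat-Ic, had means of 1.64 and 0.37 FPKM and did not pass (limma adjusted p = 0.068).

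A set of 40 tested genes was taken by the symbol prefixes of cuticle proteins (Cpr, Twdl, Lcp, Pcp, Acp, Ccp). It also holds Acp genes, such as Acp53Ea, that are not cuticle protein genes. Of the 40, 2 were called higher and 1 lower with Trichoplax Yap S81A, and 13 lay above 0 with a median of -0.20. TwdlE and Cpr97Eb thus stood apart from most of this mixed set. Of 6 tested Osiris genes, Osi9 was called, and Osi6 had means of 31.3 and 8.92 FPKM (limma adjusted p = 0.0565). Of 6 tested Wnt genes none was called and 5 lay above 0. The proapoptotic gene grim had means of 6.13 and 2.92 FPKM (limma adjusted p = 0.184), and the homeobox gene Dr had means of 1.75 and 0.25 FPKM (limma adjusted p = 0.0565), both without overlap between the groups.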
